A study of Rattus norvegicus with 20 samples.

Results

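The genes of acetylcholine neurons and spinal motor neurons were followed through the injured spinal cord and the brain white matter of rats with a cervical hemicontusion. The 6 genes were taken by symbol: Chat, Slc18a3, Slc5a7, Ache, Mnx1 and Isl1. Of the 30443 genes in the expression table, 5 carried one of these symbols, and Slc18a3 was not analysed here. Chat, Slc5a7, Ache and Isl1 were among the 15210 genes that reached 1 FPKM (sequenced fragments scaled by transcript length and by the size of the library, so that levels of different genes can be compared) in at least 1 library. Mnx1 stayed below that level in all 20 libraries, and Isl1 passed only through the 2 region 5 libraries of the stimulated animals.

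Total RNA was sequenced from 5 regions of 4 female wild-type Long-Evans rats aged about 6 to 8 months, which made 20 libraries. All 4 animals, the controls included, carried a hemicontusion at cervical level C4 made with a 0.7 mm displacement, and an electrode array placed 2 weeks later in the motor cortex on the other side of the body. In the 2 Treatment animals the cortex was stimulated at 10 Hz on average for 5 h per day at 80% of the movement threshold. The labels give 1 week of stimulation, and the study's methods give 5 days, in cycles of 5 minutes on and 2 minutes off. The 2 Control animals were attached to a sham device. Region 1 was a block of about 5 mm3 of white matter under the electrode, region 2 the same block in the opposite hemisphere, region 3 cord rostral to the injury (about C2 to C4), region 4 cord at the lesion (about C4) and region 5 cord caudal to it, labelled about C4 to C6, a range that the study's methods place 1 level lower at both ends. The cord pieces held gray and white matter. There was no uninjured animal, so the injury and the cervical level of a cord piece cannot be told apart in any comparison between cord regions.

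Motor neurons of the ventral horn send their axons to muscle and release acetylcholine there. Chat, choline acetyltransferase, makes acetylcholine, and Slc5a7, the high-affinity choline transporter, takes choline back into the nerve ending. The vesicular transporter Slc18a3 loads acetylcholine into vesicles, and its gene lies within the first intron of Chat. Ache, acetylcholinesterase, breaks acetylcholine down and is also made by neurons that do not release it. Mnx1 and Isl1 are homeodomain transcription factors that set motor neuron identity in the embryo, and Isl1 is also made by sensory neurons of the dorsal root ganglia. Preganglionic autonomic neurons and some interneurons of the cord are cholinergic as well, so Chat and Slc5a7 do not mark motor neurons alone. In these bulk samples, fewer cells of a type and less RNA per cell cannot be told apart.

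The proximal promoters of Chat, Slc5a7 and Ache are shown because the levels of Chat and Slc5a7 ran together across the cord while Ache ran apart. Each is the 250 bases before the transcription start in RefSeq on GRCr8, 5′ to 3′ on the gene's own strand, and the windows lie at chr16:7723417-7723666 (minus strand) for Chat, chr9:7953510-7953759 (minus strand) for Slc5a7 and chr12:25050411-25050660 (minus strand) for Ache. GRCr8 is a later build than the one used for the expression values. Capitals mark the letters TAAT or their reverse complement ATTA, the core of homeodomain sites, and CACGTG, an E-box.
Chat: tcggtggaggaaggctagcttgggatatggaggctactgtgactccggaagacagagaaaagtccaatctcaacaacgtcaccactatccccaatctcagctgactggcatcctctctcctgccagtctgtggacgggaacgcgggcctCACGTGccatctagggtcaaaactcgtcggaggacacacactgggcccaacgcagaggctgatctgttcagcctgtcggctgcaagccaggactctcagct
Slc5a7: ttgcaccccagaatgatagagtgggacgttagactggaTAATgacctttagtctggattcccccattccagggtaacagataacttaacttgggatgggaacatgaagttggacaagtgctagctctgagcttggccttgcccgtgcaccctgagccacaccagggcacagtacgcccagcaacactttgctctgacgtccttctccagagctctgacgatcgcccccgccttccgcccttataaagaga
Ache: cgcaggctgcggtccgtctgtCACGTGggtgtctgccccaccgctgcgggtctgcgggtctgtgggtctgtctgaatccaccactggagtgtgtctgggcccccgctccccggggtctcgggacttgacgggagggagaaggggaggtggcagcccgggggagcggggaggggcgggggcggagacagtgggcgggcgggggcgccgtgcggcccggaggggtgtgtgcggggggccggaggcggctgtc
The search covered both strands, and TAAT and CACGTG did not overlap each other. The letters TGACGTCA were searched for as well, with 0 matches in Chat, Slc5a7 and Ache. Chat and Ache held 1 CACGTG each and no TAAT, and Slc5a7 held 1 TAAT and no CACGTG. Among the promoter windows of all genes in the RefSeq table, 57% held TAAT on either strand, 5.59% held CACGTG and 1.59% held TGACGTCA. Chat and Slc5a7 therefore shared none of these motifs in these windows, and the shared CACGTG was in Chat and Ache.

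The cholinergic genes did not follow 1 pattern at the lesion. The mean levels of Chat and Slc5a7 were lowest rostral to the injury, intermediate at the lesion and highest caudal to it, and of these steps the one from rostral to caudal passed the test. Ache was lower at the lesion than on either side. The level of each gene in every library is plotted by region.

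**Figure D1:**
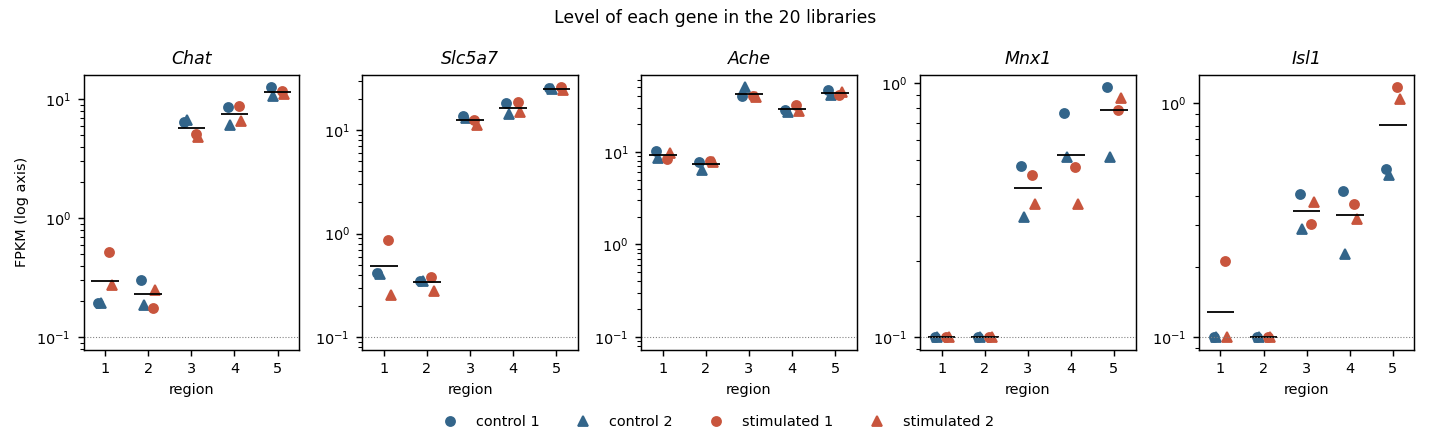
FPKM on a log axis of Chat, Slc5a7, Ache, Mnx1 and Isl1 in the 20 libraries, by region (1 and 2, white matter; 3, rostral cord; 4, lesion; 5, caudal cord). Each symbol is 1 library, colors separate control and stimulated animals, horizontal lines are means of 4 libraries, and the dotted line is the floor of 0.1 FPKM. Chat rises from a mean of 5.75 in region 3 to 11.6 in region 5, and Ache falls to 28.8 in region 4.

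Chat (ENSRNOG00000025012) in the rostral cord read 6.39 and 6.65 FPKM in Control 1 and 2 and 5.09 and 4.86 FPKM in Treatment 1 and 2. At the lesion it read 8.61 and 6.11 FPKM in the controls and 8.74 and 6.61 FPKM in the stimulated animals. In the caudal cord it read 12.7 and 10.7 FPKM in the controls and 11.8 and 11.2 FPKM in the stimulated animals. Every caudal library was above every lesion library, and the lesion and rostral libraries overlapped, since Control 2 was lower at the lesion than rostrally. The means were 5.75 ± 0.905, 7.52 ± 1.35 and 11.6 ± 0.874 FPKM (SD, n = 4) from rostral to caudal.

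Slc5a7 (ENSRNOG00000010597) in the rostral cord read 13.7 and 12.9 FPKM in Control 1 and 2 and 12.4 and 11.2 FPKM in Treatment 1 and 2. At the lesion it read 18.1 and 14.2 FPKM in the controls and 18.8 and 14.8 FPKM in the stimulated animals. In the caudal cord it read 25.4 and 24.6 FPKM in the controls and 26.0 and 24.4 FPKM in the stimulated animals. The 3 cord regions did not overlap for this choline transporter, and the order was rostral, lesion, caudal. The means were 12.6 ± 1.03, 16.5 ± 2.31 and 25.1 ± 0.738 FPKM (SD, n = 4).

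Ache (ENSRNOG00000050841) in the rostral cord read 40.1 and 50.0 FPKM in Control 1 and 2 and 39.8 and 38.6 FPKM in Treatment 1 and 2. At the lesion it read 28.2 and 26.9 FPKM in the controls and 32.4 and 27.9 FPKM in the stimulated animals. In the caudal cord it read 46.1 and 40.5 FPKM in the controls and 41.3 and 43.6 FPKM in the stimulated animals. All 4 lesion libraries lay below the other 8 cord libraries, whose rostral and caudal groups overlapped. The means were 42.1 ± 5.28, 28.8 ± 2.41 and 42.9 ± 2.51 FPKM (SD, n = 4). In RefSeq, Ache overlaps Ufsp1 and LOC120095907 and Chat overlaps Slc18a3. How reads shared between overlapping genes were divided is not given in the sources used here, so the levels of Ache and Chat carry that uncertainty.

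Mnx1 (ENSRNOG00000046959) in the rostral cord read 0.474 and 0.298 FPKM in Control 1 and 2 and 0.437 and 0.336 FPKM in Treatment 1 and 2. At the lesion it read 0.766 and 0.513 FPKM in the controls and 0.467 and 0.335 FPKM in the stimulated animals. In the caudal cord it read 0.967 and 0.512 FPKM in the controls and 0.783 and 0.871 FPKM in the stimulated animals. The caudal libraries were all above the rostral ones, and the lesion libraries overlapped both. The means of 0.386 ± 0.0828, 0.520 ± 0.180 and 0.783 ± 0.196 FPKM (SD, n = 4) had the same order as those of Chat, at a far lower level.

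Isl1 (ENSRNOG00000012556) in the rostral cord read 0.407 and 0.290 FPKM in Control 1 and 2 and 0.305 and 0.378 FPKM in Treatment 1 and 2. At the lesion it read 0.421 and 0.226 FPKM in the controls and 0.369 and 0.318 FPKM in the stimulated animals. In the caudal cord it read 0.522 and 0.495 FPKM in the controls and 1.17 and 1.04 FPKM in the stimulated animals. The rostral and lesion libraries overlapped, all caudal libraries were higher, and the 2 stimulated caudal libraries stood well above the 2 controls. The means were 0.345 ± 0.0566, 0.334 ± 0.0833 and 0.808 ± 0.350 FPKM (SD, n = 4).

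At the lesion against the rostral cord, 1 of the 4 genes tested passed an adjusted p of 0.05 (limma, Benjamini-Hochberg over 15210 genes), beside 19.6% of all genes. Ache fell by 0.54 on the log2 scale (SE 0.09, adjusted p = 0.000933), a lesion mean 0.685 times the rostral mean. Lower calls made up 12.8% of all genes, and genes with every lesion library below every rostral library 15.7%. The difference was in the same direction in all 4 animals, a pattern that 26.7% of genes had, and the within-animal differences in Ache were -0.51, -0.89, -0.30 and -0.47 in Control 1, Control 2, Treatment 1 and Treatment 2.

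Chat and Slc5a7 did not pass that test, and neither was lower at the lesion than rostrally. Chat differed by 0.38 (SE 0.25, adjusted p = 0.295) and Slc5a7 by 0.38 (SE 0.23, adjusted p = 0.255), both as log2 fold changes from limma. Within animals, Chat differed by 0.43, -0.12, 0.78 and 0.45 in the same order of animals, higher in 3 of 4. Slc5a7 differed by 0.41, 0.14, 0.60 and 0.40, higher in 4 of 4, beside 24.1% of all genes. Its libraries did not overlap, which was also true, in this direction, of 13.0% of all genes. A sign-flip permutation test over the 4 animals was exact but could not go below p = 0.125, the value it gave for Slc5a7, and it gave p = 0.25 for Chat. Higher calls made up 6.78% of all genes. When the fit used the 12 cord libraries alone, the adjusted p of limma was 0.00959 for Slc5a7 and 0.0573 for Chat. On the log2(FPKM + 1) scale both passed, as higher at the lesion, at 0.0211 for Slc5a7 and 0.0430 for Chat in limma.

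Isl1 differed by -0.07 (limma log2 fold change, SE 0.35, adjusted p = 0.913) between lesion and rostral cord, with an error wide enough to hold a sizable change either way. Mnx1, fitted only when low genes were kept, differed by 0.39 (limma log2 fold change, SE 0.22, adjusted p = 0.367).

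Against the caudal cord, all 5 genes had lower means at the lesion. Ache passed the threshold and fell by 0.57 on the log2 scale (SE 0.09, limma adjusted p = 0.00478), beside 7.99% of all genes called in either direction and 7.06% called lower. Isl1 was called as well, at -1.21 (SE 0.35, limma adjusted p = 0.0438), but it had entered the test only through the caudal libraries of the 2 stimulated animals, so its difference is given as a description. Chat differed by -0.64 (SE 0.25, adjusted p = 0.104) and Slc5a7 by -0.62 (SE 0.23, adjusted p = 0.0935), which did not pass. The lesion mean was 0.650 times the caudal mean for Chat, 0.657 times for Slc5a7, 0.673 times for Ache, 0.664 times for Mnx1 and 0.413 times for Isl1.

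The median over all genes also lay below 0 in this comparison, at -0.14 on the log2 scale, and moved to -0.03 after quantile normalization. Relative to that median the differences were -0.50 for Chat, -0.48 for Slc5a7, -0.43 for Ache and -1.06 for Isl1. Chat, Slc5a7, Ache and Isl1 were each lower at the lesion in 4 of 4 animals, as were 29.9% of all genes, and their lesion and caudal libraries did not overlap, as was true of 16.3% of all genes. Mnx1 was lower in 3 of 4 animals.

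Leaving out Control 1 ended the call for Ache, at an adjusted p of 0.140 in limma. Isl1 lost its call without each of the 4 animals in turn (limma adjusted p from 0.0967 to 0.206). With the 12 cord libraries alone, Chat, Slc5a7 and Ache passed (limma adjusted p of 0.0199, 0.00942 and 0.0094), beside 2462 of 15210 genes. Isl1 was called there as well, but its difference is a description, since it met the filter only through the stimulated caudal libraries. With the animal as a block Slc5a7 also passed (limma adjusted p = 0.0491). The spread of Chat and Slc5a7 in the fit of all 20 libraries was set partly by 1 white matter library, the region 1 library of Treatment 1 described further on. Without that library the SE was 0.18 for Chat and 0.14 for Slc5a7, and both passed at the lesion against the caudal cord (limma adjusted p = 0.0453 and 0.0244). Without the 2 caudal libraries of the Treatment animals, which carried sensory ganglion genes, none of the 4 passed, with log2 differences of -0.65 for Chat, -0.61 for Slc5a7, -0.59 for Ache (limma adjusted p = 0.0575) and -0.64 for Isl1 (limma adjusted p = 0.377). The differences of Chat, Slc5a7 and Ache were thus as large without those libraries, and that of Isl1 was not.

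Between the cord pieces on either side of the injury, Chat and Slc5a7 were about double caudally, with caudal means 2.01 and 2.00 times the rostral means. Chat rose by 1.02 on the log2 scale (SE 0.25, limma adjusted p = 0.0286) and Slc5a7 by 1.00 (SE 0.23, limma adjusted p = 0.0218). These were 2 of the 4 genes tested, beside 4.32% of all genes called and 2.77% called higher. Isl1 differed by 1.13 (SE 0.35, limma adjusted p = 0.0720), given as a description because of the filter, and Ache by 0.03 (SE 0.09, limma adjusted p = 0.859). Mnx1, with low genes kept, rose by 1.01 (SE 0.22, limma adjusted p = 0.0335). In that fit Chat and Slc5a7 did not pass, at limma adjusted p = 0.0684 and 0.0566.

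Chat, Slc5a7, Mnx1 and Isl1 were each higher caudally in 4 of 4 animals, as were 31.9% of the genes tested, and their libraries did not overlap, as was true of 20.5% of the genes tested. The median over all genes was 0.11 here and -0.02 after quantile normalization. Relative to the median of 0.11, Chat differed by 0.91, Slc5a7 by 0.89, Isl1 by 1.02 and Ache by -0.08. The sign for Ache turned with the scaling, to -0.10 under quantile normalization and -0.09 under upper-quartile scaling.

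The calls for Chat and Slc5a7 depended on single animals. Chat lost its call without each animal in turn (limma adjusted p from 0.0787 to 0.122), and Slc5a7 lost it without Control 1 (0.154) and without Control 2 (0.134). Under quantile normalization the limma adjusted p was 0.0834 for Chat and 0.180 for Slc5a7. With the 12 cord libraries alone both passed, at 0.0030 and 0.0006 in limma. Isl1 was called as well, but as a description, since it met the filter only through the 2 stimulated caudal libraries. Without the 2 caudal libraries of the Treatment animals neither passed, at log2 differences of 1.03 for Chat and 1.00 for Slc5a7 (limma adjusted p = 0.253 and 0.223), and Isl1 differed by 0.57.

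Most listed genes of other transmitters and of neurons in general were lower at the lesion than in the rostral cord, like Ache and unlike Chat and Slc5a7. The list of 5 genes for glutamate, GABA and glycine neurons was called lower at the lesion than rostrally for 4 of 5 (limma), beside 12.8% of all genes, with a median of -0.81 beside -0.02 over all genes. Gad2, which makes GABA, fell by 1.06 on the log2 scale, and Slc17a6, the vesicular glutamate transporter, fell by 0.93. Of 8 general neuron genes 7 were tested and 6 fell, with a median of -0.65. Syt1 and Snap25, both of the release machinery, fell by 0.99 and 0.72. Against the caudal cord, 4 of the 7 neuron genes and 1 of the 5 transmitter genes were called lower, beside 7.06% of all genes. Caudally against rostrally, 2 neuron genes were higher and 1 lower, and 0 transmitter genes were higher and 2 lower. Higher calls there made up 2.77% and lower calls 1.55% of all genes.

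The difference between each gene and the general neuron genes was therefore measured within each animal. The mean log2 level of the 8 neuron genes, which include Eno2 although it did not pass the filter on low levels, changed by -0.62 ± 0.24 (SD, n = 4) from rostral cord to lesion. Set against it, Chat was higher by 1.00 ± 0.14, Slc5a7 by 1.00 ± 0.06, Mnx1 by 1.01 ± 0.61 and Isl1 by 0.54 ± 0.16 (SD, n = 4 animals). Each of these was above 0 in 4 of 4 animals, with an exact sign-flip permutation p = 0.125, the smallest that 4 animals allow. The same was true of 84.6% of the 15210 genes tested, whose median difference from the neuron genes was 0.60. A larger difference than that of Chat was seen in 15.0% of those genes and a larger one than that of Isl1 in 57.0%, so Isl1 lay near the median gene. Ache differed from the neuron genes by only 0.08 ± 0.04, a value whose sign turned with the pseudocount. With the 7 neuron genes that passed the filter, Chat was higher by 0.94 ± 0.17, Slc5a7 by 0.95 ± 0.0455, Isl1 by 0.49 ± 0.18 and Ache by 0.0193 ± 0.0456 (SD, n = 4).

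Against the caudal cord the same measure gave -0.19 ± 0.27 for Chat, -0.17 ± 0.32 for Slc5a7, -0.13 ± 0.17 for Ache, -0.17 ± 0.74 for Mnx1 and -0.76 ± 0.91 for Isl1 (SD, n = 4). The spread exceeded the mean for each of the 5 genes, and no exact sign-flip permutation p was under 0.25. With Eno2 left out, Chat was at -0.16 ± 0.16, Slc5a7 at -0.14 ± 0.19, Ache at -0.10 ± 0.00826 and Isl1 at -0.73 ± 0.77 (SD, n = 4), and Ache was then below 0 in 4 of 4 animals (exact sign-flip permutation p = 0.125).

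**Figure D2:**
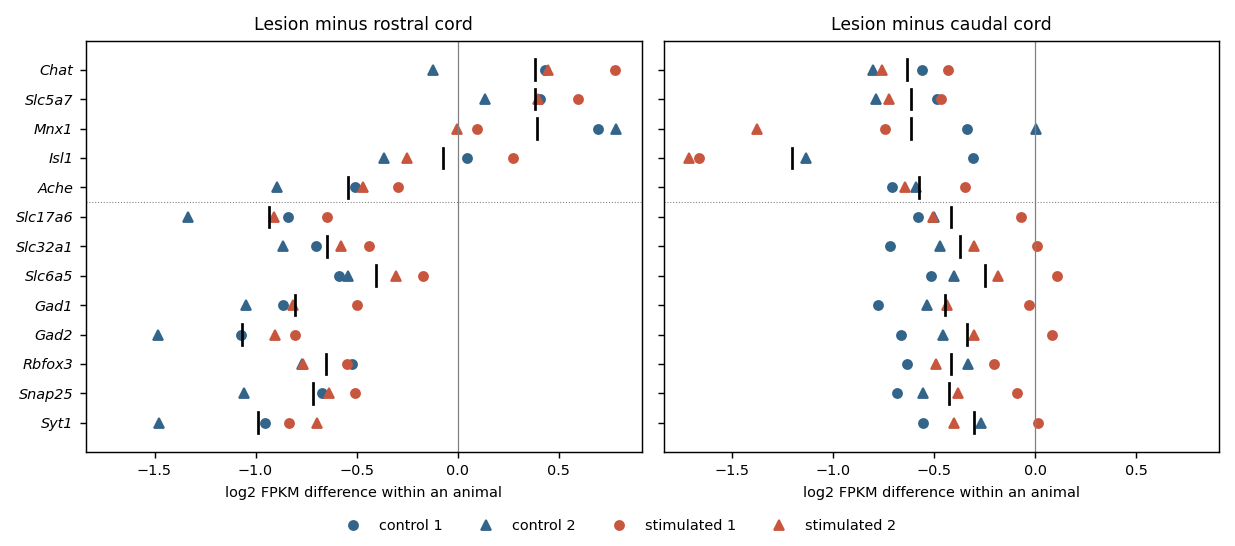
Differences in log2 FPKM within each animal, lesion minus rostral cord on the left and lesion minus caudal cord on the right. Each symbol is 1 of the 4 animals, vertical bars are means, and the dotted line separates the motor neuron and cholinergic genes from the transmitter and neuron genes. On the left, Slc5a7 is above 0 in 4 of 4 animals and the genes drawn under the line are below 0 in every animal. Of the 8 neuron genes only Rbfox3, Snap25 and Syt1 are drawn. Among the others, Tubb3 is above 0 in 1 of 4 animals on this measure.

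The other motor neuron genes were read from a list of 16, of which 15 were tested. At the lesion against the rostral cord 0 were higher and 0 lower in limma, beside 6.78% of all genes higher and 12.8% lower, with a median of 0.19. An unadjusted p under 0.05 was reached by 3 of them, Mmp9, Prph and Aldh1a2, all with higher values at the lesion, and by 5279 of all 15210 genes, of which 2153 were higher. At the lesion against the caudal cord 4 were lower and 0 higher, beside 7.06% of all genes lower, with a median of -0.50. Caudally against rostrally 5 were higher and 0 lower, beside 2.77% of all genes higher, with a median of 0.56. Prph, the intermediate filament peripherin, fell by 1.10 at the lesion against caudal cord (SE 0.15, limma adjusted p = 0.00128) and Nefh, the heavy neurofilament, by 0.74 (SE 0.12, limma adjusted p = 0.00408). Isl2, a partner of Isl1 in motor neurons, fell by 1.69 (SE 0.33, limma adjusted p = 0.0123), and Chodl, a marker of fast motor neurons, by 0.85 (SE 0.18, limma adjusted p = 0.0155). Of the cord libraries, Isl2 reached 1 FPKM only in the caudal ones of the stimulated animals. Its difference, 1 of the 4 counted as lower, is therefore given as a description. Prph and Isl2 are also made by sensory neurons of the ganglia, whose genes were high in the caudal libraries of the stimulated animals. Their mean lesion minus caudal differences were -0.84 in the controls and -1.36 in the stimulated animals for Prph, and -1.42 and -1.96 for Isl2. The part of sensory ganglion tissue in them was not tested. These 4 genes, Aldh1a2 and Mmp9 were singled out after their values were seen. Aldh1a2, which makes retinoic acid in limb motor columns and in meninges, rose by 1.42 caudally against rostrally (SE 0.38, limma adjusted p = 0.0403).

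Of 21 listed receptor genes for acetylcholine 20 had a row and 11 were tested. At the lesion 8 of the 11 were lower than rostrally and 0 higher, beside 12.8% of all genes lower, with a median of -0.61. The muscarinic receptors Chrm4, Chrm3 and Chrm1 fell by 0.91, 0.90 and 0.72 on the log2 scale, and the nicotinic subunit Chrna4 fell by 0.70 (limma adjusted p = 0.00471, 0.00400, 0.0370 and 0.00111). Against the caudal cord 4 of the 11 were lower and 0 higher, beside 7.06% of all genes lower, and caudally against rostrally 1 was higher and 1 lower, where higher calls made up 2.77% and lower calls 1.55% of all genes.

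Choline supply and breakdown genes were mostly without a call. Of 11 listed 9 were tested, and 2 were higher and 0 lower at the lesion than rostrally, beside 6.78% of all genes higher, with a median of 0.04. Chdh, which oxidizes choline, rose by 0.95 (SE 0.28, limma adjusted p = 0.0243) and the choline transporter-like gene Slc44a2 by 0.74 (SE 0.20, limma adjusted p = 0.0142). At the lesion against the caudal cord none of the 9 passed in limma, adjusted or not. Of all 15210 genes, 7.99% passed there adjusted and 4406 genes unadjusted. Caudally against rostrally 1 of the 9 passed, Slc44a2, which rose by 0.81, beside 2.77% of all genes called higher.

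Across the 12 cord libraries, Slc5a7 was the gene whose log2 level ran closest to Chat among 13409 genes with a mean of at least 1 FPKM, with a Pearson r of 0.982. The next were Hspb8 (r = 0.968), Arhgap36 (r = 0.959), Cd59 (r = 0.954) and Dysf (r = 0.953). Prph was 14 in that order and Nefh 66, whereas Ache was 8867, with r = 0.273. Mnx1 (r = 0.791) and Isl1 (r = 0.743) were too low to be ranked. The libraries came from 4 animals and 3 regions, so the points are not independent. The ratio of Slc5a7 to Chat in FPKM was 1.95 to 2.44 in the 12 cord libraries, with a median of 2.19.

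Other cell types also differed between these cord pieces. The 5 Schwann cell genes, which mark peripheral nerve and roots, summed to 14.0 to 64.6 FPKM rostrally, 79.2 to 118 at the lesion and 86.8 to 237 caudally. All 5 passed in limma as higher at the lesion than rostrally, beside 6.78% of all genes. The 6 microglia and macrophage genes summed to 80.6 to 123 rostrally, 190 to 388 at the lesion and 174 to 217 caudally. The part of tissue makeup in the levels of Chat, Slc5a7, Ache, Mnx1 and Isl1 was not tested.

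In white matter of the brain the cholinergic genes were low. Chat ran from 0.176 to 0.522 FPKM over the 8 libraries and Slc5a7 from 0.253 to 0.867, against cord means of 8.28 ± 2.73 and 18.0 ± 5.63 FPKM (SD, n = 12). Ache ran from 6.41 to 10.2 FPKM, against a cord mean of 37.9 ± 7.49 (SD, n = 12). Mnx1 was at the floor of 0.1 in all 8 white matter libraries and Isl1 in 7 of 8. The cord and white matter libraries did not overlap for any of the 5 genes, beside 16.8% of the genes tested.

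Chat, Slc5a7 and Isl1 passed the filter on low levels only through cord libraries, so their difference from white matter is given as a description, with no test. Ache, which was above 1 FPKM in every library, rose by 2.17 on the log2 scale (SE 0.06, limma adjusted p = 2.74e-16), beside 72.2% of genes called and 47.1% called higher. The cord mean was 31.6 times the white matter mean for Chat, 43.8 times for Slc5a7 and 4.55 times for Ache. For Isl1 it was 4.35 times the white matter mean, in which 7 of 8 libraries stood at the floor of 0.1 FPKM. For Mnx1, with all 8 at the floor, the cord mean was at least 5.63-fold higher.

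A single white matter library stood apart. Under the electrode, Chat read 0.194 FPKM in both controls and 0.522 and 0.276 FPKM in Treatment 1 and 2, and in the opposite hemisphere it read 0.304, 0.186, 0.176 and 0.247 FPKM in Control 1, Control 2, Treatment 1 and Treatment 2. The region 1 library of Treatment 1 was the highest of the 8 for Chat, for Slc5a7 (0.867 FPKM) and for Isl1 (0.212 FPKM). It was also the highest for 7 genes of striatal neurons, which summed to 140 FPKM there and to 34.6 to 52.9 FPKM in the other 7. The 6 genes listed for basal forebrain and striatal cholinergic neurons summed to 3.43 FPKM in that library and to 2.31 to 3.27 FPKM in the other 7. Lhx8, a factor of forebrain cholinergic neurons and 1 of these 6, was at the floor in all 20 libraries. The part of striatal tissue in these levels was not tested. The white matter blocks also carried cortical neuron genes, which summed to 256 to 375 FPKM there and to 1.41 to 14.5 FPKM in the cord.

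**Figure D3:**
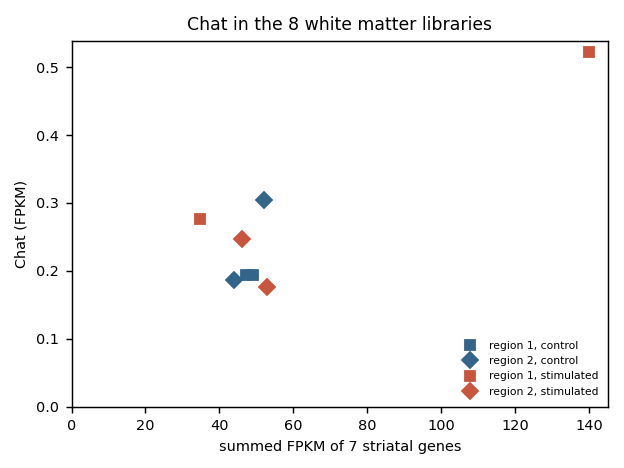
Chat in FPKM against the summed FPKM of 7 striatal genes in the 8 white matter libraries, with squares for region 1, diamonds for region 2, and colors for control and stimulated animals. The region 1 library of Treatment 1 lies alone at 140 and 0.522 FPKM, and the other 7 libraries lie between 34.6 and 52.9 on the horizontal axis.

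Between the white matter under the electrode and the opposite side, 0 of the 4 genes passed in limma, beside 8.61% of all genes. Ache was nearest, at 9.22 ± 0.844 and 7.46 ± 0.699 FPKM (SD, n = 4), a log2 difference of 0.31 (limma adjusted p = 0.0512), and it alone of the 4 had an unadjusted p under 0.05. Chat differed by 0.28 (limma adjusted p = 0.532) and Slc5a7 by 0.39 (limma adjusted p = 0.324), and without the library with striatal genes by -0.03 and 0.06.

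Cortical stimulation was compared within each region between 2 Treatment and 2 Control animals. With limma, 0 of the 4 genes passed in any of the 5 regions, beside 0% of all genes in regions 1 to 4 and 0.0197% in region 5, where 3 genes passed. At an unadjusted p under 0.05 the same fits held 828, 215, 522, 341 and 546 genes in regions 1 to 5, among them Chat in the rostral cord and Isl1 in the caudal cord. An exact permutation test of 2 against 2 libraries could not reach 0.05.

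In the rostral cord Chat was below both controls in both stimulated animals, with a limma log2 difference of -0.39 (SE 0.08, adjusted p = 0.956). Slc5a7 and Ache were also below their controls there without overlap, in the direction shared by 24.7% of all genes. At the lesion the differences of the 4 genes ran from 0.05 to 0.15 on the log2 scale, in the opposite hemisphere from -0.19 to 0.15. Under the electrode Chat was above both controls without overlap, as were 21.2% of all genes, with a difference of 0.97 (SE 0.37, limma adjusted p = 0.712) that included the library with striatal genes.

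Caudally, Isl1 had the largest stimulation difference of the 4 genes, and it had passed the filter only through the 2 stimulated libraries of this comparison. Its levels of 1.17 and 1.04 FPKM in the stimulated animals and 0.522 and 0.495 FPKM in the controls differed by 1.12 (SE 0.13, limma adjusted p = 0.437), and 18.5% of all genes had both stimulated libraries above both controls. Isl2, read beside it after its values were seen, was 1.98 to 2.05 FPKM in the stimulated animals and 0.820 to 0.866 FPKM in the controls. Genes of sensory ganglion neurons moved with both. Their 7 genes summed to 13.5 and 23.8 FPKM in the caudal libraries of Treatment 1 and 2, to 2.87 and 2.52 FPKM in those of Control 1 and 2, and to 2.04 to 3.03 FPKM in the 8 rostral and lesion libraries. Scn10a, Scn11a and Mrgprd, which define nociceptors of the ganglia, were above the floor in those 2 libraries and at 0.1 in the other 18. The part of sensory ganglion tissue in the level of Isl1 was not tested. Chat and Slc5a7 did not stand apart in these libraries, with differences of -0.02 (SE 0.12) and 0.01 (SE 0.08), and Mnx1 was within the range of its controls.

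**Figure D4:**
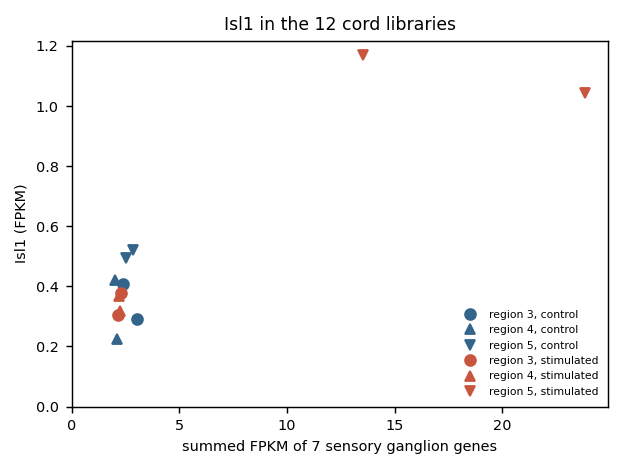
Isl1 in FPKM against the summed FPKM of 7 sensory ganglion genes in the 12 cord libraries, with a marker shape for each region and colors for control and stimulated animals. The 2 stimulated region 5 libraries lie apart, at 13.5 and 23.8 on the horizontal axis and 1.17 and 1.04 on the vertical axis, and the other 10 lie at or below 3.03 and 0.522.

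Those 2 libraries also bear on the lesion result for Isl1. The lesion minus caudal difference of Isl1 was -0.31 and -1.13 in Control 1 and 2, with a mean of -0.72, and -1.66 and -1.71 in Treatment 1 and 2, with a mean of -1.69. The test of that difference between the 2 conditions gave -0.97 (SE 0.33, limma adjusted p = 1), beside 0.00657% of all genes called. Isl1 had passed the filter only through the 2 stimulated caudal libraries of this comparison, so the value is given as a description. For lesion minus rostral the condition differences of the 4 genes ran from 0.17 to 0.46, with no adjusted p of limma under 0.929 and 0% of all genes called. In the control animals alone, the lesion libraries of Isl1 read 0.421 and 0.226 FPKM and the caudal ones 0.522 and 0.495 FPKM, with no test at 2 animals.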

How the data were processed

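Expression was measured by total RNA sequencing with ribosomal depletion in 20 libraries, 5 regions of 4 rats. Per the labels and the study's methods, the authors aligned reads to Rnor6 with TopHat2 2.1.0, and quality was checked with FastQC and MultiQC 1.6. The authors deposited FPKM values per gene from Cufflinks 2.2.1, a level scaled by transcript length and mapped fragments, in which values under 0.1 stood at 0.1. The annotation version and the counting strand are not given in the sources used here. The study states the reads and mapping rate of each library, but the reads behind a gene's FPKM are unknown, so no counting interval was made. All columns carried a sample title, and 0 columns were without a sample.

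Log2 FPKM values, floored at 0.1, of genes with at least 1 FPKM in any library (15210 of 30443) were fitted with limma 3.58.1 in R 4.3.3 (lmFit, eBayes with trend). Region contrasts used 1 mean for each region over the 20 libraries, stimulation was tested on the 4 libraries of each region, and the effect of stimulation on a regional difference on differences within animals. The region fit treats libraries of 1 animal as independent. Benjamini-Hochberg adjustment ran over the whole set of tested genes, and an adjusted p under 0.05 counted as a call. The scripts were tested on simulated data. Exact sign-flip permutation tests, two-sided, were run over 4 animals with Python 3.11.15, numpy 2.4.6, pandas 2.3.3 and scipy 1.17.1, and plots used matplotlib 3.10.9.

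The genes and lists were chosen with earlier results of these data known. Named genes were the 6 listed, the 4 genes of each list with the largest change past the threshold at the lesion against the rostral cord, and the 5 genes closest to Chat by Pearson correlation. Others fall outside this rule, and some are marked as chosen after their values were seen. Lhx8, Scn10a, Scn11a, Mrgprd and Tubb3 carry no such mark and are to be read in the same way. Promoter sequences came from RefSeq on GRCr8, where all 6 genes matched.

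The 5 libraries of an animal are paired by the labels. Deviations from the group means correlated within animals at 0.136 to 0.255 between lesion and rostral cord, -0.0883 to 0.105 between lesion and caudal cord, 0.0224 to 0.180 between caudal and rostral cord and 0.413 to 0.768 between the white matter blocks. Alternatives were a pseudocount of 1, no filter, 1 FPKM in 2 libraries, eBayes without a trend, quantile and upper-quartile scaling, cord libraries only, an animal block, a mean per region and condition, a replicate block for stimulation, leaving out each animal and, added after the data were seen, leaving out the libraries that stood apart or the neuron gene Eno2.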

Additional observations from a re-analysis of the deposited data

Results flagged for a closer look

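In each region the 4 values of a gene were searched for 1 value far from the others by Dixon's criterion at its 95% level. Of 25 groups, 22 had any spread and 3 were picked out. Chance alone picks about 1 in 20 groups whose values are not held at the floor. Ache in the rostral cord had Control 2 far above the rest at 50.0 FPKM, the animal with the largest lesion minus rostral difference of that gene. Ache in the white matter opposite the electrode had Control 2 far below the rest at 6.41 FPKM. Isl1 in the white matter under the electrode had Treatment 1 at 0.212 FPKM, with the other 3 libraries at the floor of 0.1. With 3 equal values any other value is picked out, so this group cannot be set against that rate.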

How the results depend on the processing

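The fall of Ache at the lesion against the rostral cord passed in all 15 alternatives (limma adjusted p from 0.000226 to 0.0258). Of Chat, Slc5a7, Ache and Isl1, the number called at the lesion against the rostral cord was 1, beside 2984 of 15210 genes. It was 3 with log2(FPKM + 1), beside 3137 genes, and 2 with the cord libraries alone, beside 4787. The calls added with log2(FPKM + 1) were Chat and Slc5a7, both higher. At the lesion against the caudal cord the number was 2, beside 1216 genes. It was 4 with log2(FPKM + 1), beside 1323 genes, and 4 with the cord libraries alone, beside 2462. It was 1 with no filter (578 of 30443 genes), with upper-quartile scaling (628) and with a mean per region and condition (522). When 1 animal was left out it was 0 to 2, beside 5 to 1097 genes. Leaving out libraries that stood apart, a choice made after seeing the data, gave 0 without the Treatment libraries of region 5, beside 7 genes. The number was 4 without the region 1 library of Treatment 1, beside 1003 genes. The 2 from the main fit and each count of 4 included Isl1. It met the filter only through the stimulated caudal libraries, so that call is a description. Between caudal and rostral cord the number called was 2, beside 657 genes, and was 1 with a mean per region and condition (525 genes). It was 0 after quantile normalization (1109 genes) and without the Treatment libraries of region 5 (44 genes). When 1 animal was left out it was 0 to 1, beside 54 to 1237 genes. With no filter the number was 1, beside 452 of 30443 genes, but that gene was Mnx1, which enters the test only there, and 0 of the 4 passed. Upper-quartile scaling called 1 of the 4, Ache, between the white matter blocks, beside 2246 of 15210 genes. Over all genes, the count at the lesion against the rostral cord was 2984 and ran from 523 without Control 2 to 4909 without Treatment 2. At the lesion against the caudal cord it was 1216 and ran from 5 without Control 1 to 2462 with the cord libraries alone, and between caudal and rostral cord it was 657 and ran from 44 without the Treatment libraries of region 5 to 2570 with the cord libraries alone. These swings, and the unknown depth of low genes such as Mnx1 and Isl1, limit what any single call can carry.

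Directions turned for Isl1 between lesion and rostral cord, for Ache between caudal and rostral cord, for Chat and Slc5a7 between the white matter blocks, and for many stimulation differences, none of which was called without the replicate block. Isl1 at the lesion against the rostral cord became 0.0244 without Control 2, and ran down to -0.188 when Treatment 1 was left out. Ache between caudal and rostral cord became -0.10 after quantile normalization, -0.0859 with upper-quartile scaling, and ran from -0.0237 without Control 1 to 0.144 without Control 2 when 1 animal was left out. Relative to the neuron genes, Ache at the lesion against the rostral cord became -0.00685 with log2(FPKM + 1) and -0.0274 with the median of the list, and Mnx1 at the lesion against the caudal cord became 0.19 with log2(FPKM + 1), and ran from -0.396 without Control 2 to 0.0660 without Treatment 2 when 1 animal was left out. Between the white matter blocks, Chat became -0.342 after quantile normalization and -0.0296 without the region 1 library of Treatment 1, and ran from -0.143 to 0.596 when 1 animal was left out. Slc5a7 became -0.101 there after quantile normalization. For stimulation, quantile normalization turned Slc5a7 to -0.265 in region 1 and -0.0132 in region 5 and Isl1 to 0.137 in region 3, and upper-quartile scaling turned the last 2 to -0.0222 and 0.0564. When 1 animal was left out, the stimulation difference in region 1 ran from -0.706 to 1.07 for Slc5a7 and from -0.170 to 0.0680 for Ache. In region 2 it ran from -0.544 to 0.166 for Chat and from -0.316 to 0.129 for Slc5a7, and in region 3 from -0.261 to 0.229 for Isl1. In region 4 it ran from -0.180 to 0.316 for Chat, from -0.123 to 0.228 for Slc5a7 and from -0.297 to 0.603 for Isl1. In region 5 it ran from -0.144 to 0.107 for Chat, from -0.0360 to 0.0563 for Slc5a7 and from -0.119 to 0.0656 for Ache. The effect on lesion minus rostral ran from -0.0932 to 0.432 for Isl1, and that on lesion minus caudal from -0.0759 to 0.249 for Chat and from -0.110 to 0.196 for Slc5a7. The cause was not tested.

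Replicate numbers 1 and 2 of the Control and Treatment animals name different animals, and same-numbered libraries correlated at -0.213 to 0.321 in their deviations, so the numbers share only a number. With the replicate block, 443 of 15210 genes were called for stimulation in the caudal cord, and of the 4 genes Isl1, at a log2 difference of 1.12. That fit had 1 residual degree of freedom and an infinite prior. Isl1 had passed the filter only through the 2 stimulated libraries of this comparison, so its difference is given as a description. None of the 4 was called in the other regions, where 0 of all genes were called. With the numbers crossed, a pairing added after the data were seen, 0 of the 4 were called in each region. The animal block, for regions, called 1, 3 and 2 of the 4 at the lesion against rostral, at the lesion against caudal, and in caudal against rostral cord. In the same order it called 3646, 1966 and 927 of all 15210 genes.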
